A study of Mus musculus with 16 samples.

Results

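Collagen genes were taken from the array by name: every probe that was no control spot and whose gene, by the name in the file or by its current symbol, is written as Col, a number, the letter a and a number. This gave 42 genes read by 80 probes, of 27675 genes and 41174 probes in all. They fall into 11 fibrillar, 8 basement membrane and 23 other collagens. Genes entered the tests if Feature Extraction marked the heart signal of a probe as well above background on 4 or more arrays. That left 28 collagens (10 fibrillar, 6 basement membrane and 12 other) among 12333 genes.

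Collagens are triple helices of chains that the genes encode singly. Fibrillar collagens (types I, III, V and others) form the rope-like fibres of heart interstitium, valves and vessel walls and are made mainly by fibroblasts. Basement membrane collagens belong to the sheet around each heart muscle cell and capillary: type IV is its network, most often of COL4A1 and COL4A2 chains, and types XV and XVIII are bound to it. Other collagens decorate fibrils, form beaded filaments (type VI) or networks (type VIII), or span membranes (type XVII). Collagen is laid down fast in growing skin, bone and cartilage, so a whole newborn pup is rich in many of these mRNAs.

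The study asked what the muscle ring finger proteins MuRF1 and MuRF2, encoded by Trim63 and Trim55, do in the growth of the mouse heart. The strain-matched groups, aged 12 weeks, were wild type (MuRF1 +/+ MuRF2 +/+), double null (MuRF1 -/- MuRF2 -/-), MuRF1 null MuRF2 het (MuRF1 -/- MuRF2 +/-) and MuRF1 het MuRF2 null (MuRF1 +/- MuRF2 -/-), each of 4 biological replicates. Each of the 16 arrays held heart RNA in Cy5 and, in Cy3, a reference made from pups of strain C57BL/6 on postnatal day 1, taken whole and pooled. How the alleles were made and the strain and sex of the hearts' donors are not stated in the labels. Each value below is a log2 ratio of heart over pup reference, so 0 means equal signal. Group errors are SD with n = 4 arrays unless stated, and errors of differences are limma standard errors. Since the tissue was whole heart, fewer cells of a type and less RNA per cell cannot be told apart.

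The arrays were not equally bright. Probes well above background in the heart channel numbered 15171 to 16664 in wild type, 16129 to 17391 in MuRF1 het MuRF2 null, 6037 to 14503 in double null and 6402 to 15067 in MuRF1 null MuRF2 het. The lowest were double null array 2 (6037) and MuRF1 null MuRF2 het array 1 (6402), called the dim arrays below. Every double null and every MuRF1 null MuRF2 het array held fewer such probes than any wild type array. Brightness and genotype thus cannot be fully told apart when these groups are compared with wild type. Wild type and double null shared slides 1 and 3, while each of the other groups had a slide of its own, so for those groups slide and genotype cannot be told apart. Trim63, the gene of MuRF1, lay at 2.51 to 2.71 in wild type and at -1.04 to -0.39 in double null hearts, without overlap. All 11 heart muscle markers were above the reference in wild type, from 0.75 for Ryr2 to 6.46 for Mybpc3.

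Col4a1 and Col4a2, the chains of the common type IV network, fell together in double null hearts, and their genes stand head to head. In the RefSeq records of GRCm38.p6 their starts lie 21 bases apart on opposite strands. The 250 bases before each start are printed for this reason, with those of Col24a1, the other collagen called lower in these hearts, for contrast, although its place among the genes tested rested on the wild type arrays. Capitals mark matches, on either strand, to the GC box GGGCGG, the CCAAT box CCAAT and the TATA box TATAAA. The windows are chr8:11312827-11313076 on the minus strand for Col4a1, chr8:11312555-11312804 on the plus strand for Col4a2 and chr3:145292222-145292471 on the plus strand for Col24a1. The minus-strand Col4a1 start, at 11312826, lies past the plus-strand Col4a2 start, at 11312805, so the genes overlap at their starts. The Col4a1 window thus lies within Col4a2 and the Col4a2 window within Col4a1.
Col4a1: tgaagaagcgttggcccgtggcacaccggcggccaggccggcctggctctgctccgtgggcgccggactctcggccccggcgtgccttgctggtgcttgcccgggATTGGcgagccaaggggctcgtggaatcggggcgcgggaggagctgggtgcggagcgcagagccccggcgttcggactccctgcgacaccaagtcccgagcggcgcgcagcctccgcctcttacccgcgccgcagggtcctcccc
Col4a2: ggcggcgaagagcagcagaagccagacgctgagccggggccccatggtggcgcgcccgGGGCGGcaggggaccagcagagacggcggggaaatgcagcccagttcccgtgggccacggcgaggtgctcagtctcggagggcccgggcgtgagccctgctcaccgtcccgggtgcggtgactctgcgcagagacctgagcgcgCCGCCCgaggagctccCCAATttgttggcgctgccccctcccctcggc
Col24a1: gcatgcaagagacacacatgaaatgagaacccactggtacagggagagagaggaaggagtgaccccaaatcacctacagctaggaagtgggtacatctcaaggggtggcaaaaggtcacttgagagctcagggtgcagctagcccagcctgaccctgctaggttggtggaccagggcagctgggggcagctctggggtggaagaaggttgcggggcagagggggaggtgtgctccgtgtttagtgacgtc
The Col4a2 window held 2 GC boxes and 1 CCAAT box, the Col4a1 window 1 CCAAT box, and neither held a TATA box. The Col24a1 window held no match to any of the 3. Of 32851 windows of this length in the RefSeq table, 32.7% held the GC box letters, 33.8% the CCAAT letters and 12.4% the TATA letters. The share of G and C was 74.4% for Col4a1, 73.6% for Col4a2 and 58% for Col24a1, against a median of 52.4% over all windows. A match is only a stretch of letters, and 33 of the 42 collagens had a window in the table.

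In wild type hearts most collagens were below the pup reference. Of the 28 tested, 13 had a wild type ratio below -2, where 2.52% of all genes tested did. Fibrillar collagens had a median of -2.68 and ranged from -5.08 to 0.53, with 9 of 10 below 0. Basement membrane collagens had a median of 0.03 and ranged from -2.84 to 0.51, with 3 of 6 below 0. The other collagens had a median of -1.52 and ranged from -3.74 to 0.02, with 11 of 12 below 0. The chains of the fibres of skin and bone were at -5.08 ± 0.229 (SD, n = 4) for Col1a1, -4.26 ± 0.271 for Col3a1 and -4.23 ± 0.1001 for Col1a2. A further Col1a1 probe above background on all 16 arrays had a wild type mean of -2.68, so a ratio depends on the probe and the genes are not ranked. Col24a1 at 0.53 ± 0.0968, Col4a6, a minor type IV chain, at 0.51 ± 0.0830 and Col15a1, which bridges basement membranes and interstitium, at 0.48 ± 0.190 lay above 0. These are ratios to the reference and say nothing of abundance in the heart.

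The 14 collagens that were not tested were Col10a1, Col12a1, Col13a1, Col19a1, Col23a1, Col25a1, Col27a1, Col28a1, Col4a3, Col4a5, Col6a6, Col8a2, Col9a1 and Col9a3. No probe of theirs had a heart signal well above background on 4 arrays, so their level in the heart was not measurable here.

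Between double null and wild type hearts, 3 collagens rose and 3 fell by limma with Benjamini-Hochberg adjustment over all genes. The 6 called are 21.4% of the 28, and 22.3% of all genes tested were called in this comparison (10.3% rose and 12% fell), so the count is near the background. The median difference was 0.57 for fibrillar, -0.09 for basement membrane and 0.44 for other collagens, against 0.01 for all genes. Without the dim arrays these medians were 0.24, -0.01 and 0.27, with Cy5 alone 0.05, -0.04 and 0.17, and with array brightness as a covariate -0.40, -0.21 and -0.10, so the fibrillar and other medians turned in the last. Col4a1, Col4a2 and Col24a1 fell, and Col11a2, Col17a1 and Col22a1 rose. Double null arrays lay all above wild type arrays for 7 of the 28 collagens and all below for 3. Of all genes, 12.5% lay all above and 12.9% all below. Col24a1 entered the test through the wild type arrays, so its place in the count is a description only. The plot of differences by class sets each gene with all arrays beside its value without the dim arrays.

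**Figure D1:**
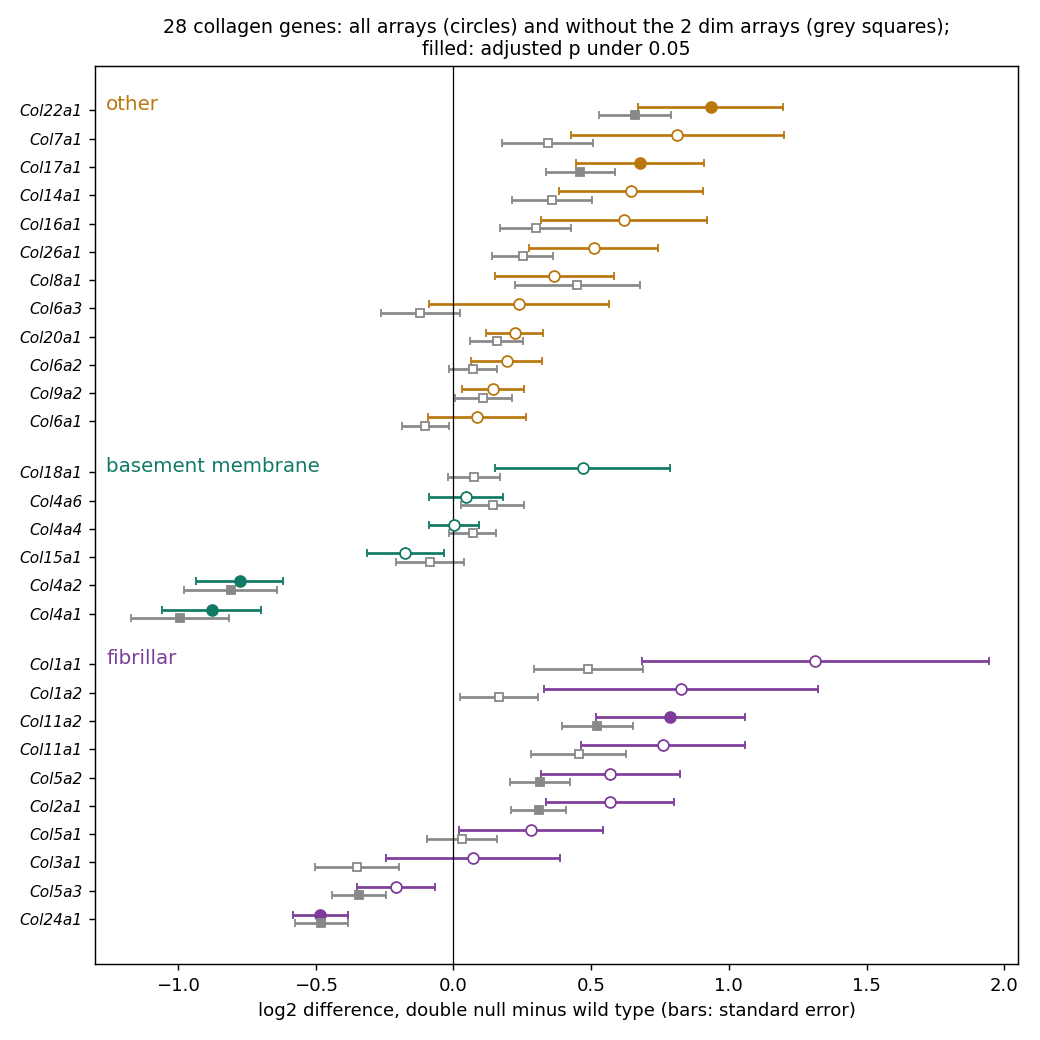
Log2 difference between double null and wild type (x axis) for each of the 28 collagens tested (y axis, by class), with limma standard errors. Coloured circles use all arrays and grey squares leave out the 2 dim arrays, and filled symbols passed an adjusted p of 0.05. Col4a1 lies at -0.88 and -0.99 and Col4a2 at -0.78 and -0.81, while Col1a1 moves from 1.31 to 0.49.

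Among fibrillar collagens, the main fibre chains did not pass the test. Col1a1, the type I alpha 1 chain, had ratios of -4.87, -5.40, -5.04 and -4.99 in wild type and -4.38, -1.29, -4.93 and -4.45 in double null hearts. The dim array 2 stood far above the other 3, and array 3 lay within the wild type range. The difference was 1.31 ± 0.630 (adjusted p = 0.135) with all arrays and 0.49 ± 0.198 (adjusted p = 0.0731) without the dim arrays. The direction turned with median centring (-0.28) and with brightness as a covariate (-0.49). There 10 and 9 of the 10 fibrillar collagens lay below 0, against 2 as reported. Of all 12333 genes, 11695 and 6369 lay below 0 there, against 5993 as reported. A further Col1a1 probe gave 0.55 (adjusted p over probes 0.138). Col1a2, the partner chain of type I, had -4.15, -4.37, -4.17 and -4.24 in wild type and -4.08, -1.43, -4.16 and -3.97 in double null hearts. Here too array 2 was the one apart, and the difference of 0.83 (adjusted p = 0.231) became 0.17 (adjusted p = 0.394) without the dim arrays. Col3a1, the chain of the fine fibres of type III, had -4.27, -4.61, -3.95 and -4.21 in wild type and -4.80, -2.93, -4.43 and -4.60 in double null hearts. Its difference of 0.07 (adjusted p = 0.887) became -0.35 (adjusted p = 0.0965) without the dim arrays, so its sign rested on array 2.

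Col5a1 and Col5a2 encode chains of type V collagen, which starts fibrils. Col5a1 had -2.86, -3.23, -2.74 and -2.91 in wild type and -2.84, -1.90, -2.98 and -2.89 in double null hearts, where array 2 alone lay outside the wild type range. Its difference of 0.28 (adjusted p = 0.446) became 0.03 without the dim arrays. Col5a2 had -2.24, -2.55, -2.22 and -2.15 in wild type and -2.001, -0.96, -2.06 and -1.86 in double null hearts. All double null arrays lay above all wild type arrays, and the difference was 0.57 (adjusted p = 0.109), or 0.32 (adjusted p = 0.0407) without the dim arrays. With double null array 2 alone left out, Col5a2 did not pass (adjusted p = 0.317). Leaving out both dim arrays also brought Col2a1, the main cartilage collagen, past the threshold upward at 0.31 (adjusted p = 0.0282). Col5a3 passed downward there at -0.34 (adjusted p = 0.0166). That setting called 5 collagens that rose and 4 that fell, 32.1% of the 28, and 29.3% of all genes.

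Col11a1 and Col11a2 encode chains of the type XI collagen of cartilage. Col11a2 had -1.59, -1.95, -1.93 and -1.75 in wild type and -1.12, -0.22, -1.47 and -1.28 in double null hearts. All double null arrays were above all wild type arrays, and the difference was 0.79 ± 0.271 (adjusted p = 0.0479), or 0.52 (adjusted p = 0.00769) without the dim arrays. With double null array 2 alone left out, Col11a2 did not pass (adjusted p = 0.132). Col11a1 had -2.34, -2.54, -2.60 and -2.26 in wild type and -1.69, -0.75, -2.28 and -1.97 in double null hearts. Its array 3 overlapped wild type, and the difference of 0.76 did not pass (adjusted p = 0.0744).

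Col24a1, a fibrillar collagen of developing bone, had 0.39, 0.60, 0.58 and 0.56 in wild type and 0.13, 0.04, 0.16 and -0.14 in double null hearts. The groups did not overlap, and it fell by 0.48 on the log2 scale (SE 0.0991, adjusted p = 0.00392). Its heart signal was well above background on 4 wild type arrays and 1 double null array, so it entered the test through the wild type group. The filter thus favoured a lower value elsewhere, and the call is a description only. Before loess, and relative to the median gene of each array, its heart signal was 0.16 higher in double null than in wild type. That median gene stood at 5.95 to 6.71 (log2 Cy5) in double null and at 6.82 to 7.10 in wild type arrays. The value thus gives no direction for the heart signal of Col24a1 itself. With the Cy5 channel alone, quantile normalised, the Col24a1 difference was -0.24 (adjusted p = 0.0628), and the call was lost.

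Of the basement membrane collagens, only Col4a1 and Col4a2 passed the test. Col4a1 had -0.87, -0.98, -0.46 and -0.73 in wild type and -2.13, -1.29, -1.45 and -1.67 in double null hearts. Every double null array lay below every wild type array, the dim array being the highest of them. Col4a1 was 1.84-fold lower (log2 difference -0.88 ± 0.180, adjusted p = 0.00385). Col4a2 had -0.29, -0.51, 0.21 and -0.17 in wild type and -1.25, -0.87, -0.67 and -1.08 in double null hearts. The groups again did not overlap, and Col4a2 was 1.71-fold lower (-0.78 ± 0.158, adjusted p = 0.00374). Further probes gave -0.54 for Col4a1 and -0.46 for Col4a2 (adjusted p over probes 0.00849 and 0.0104). Both falls were as large without the dim arrays, at -0.99 and -0.81 (adjusted p = 0.000922 and 0.00264). On slide 1 alone, with 2 arrays a group, the differences were -0.79 and -0.66 and missed the threshold (adjusted p = 0.224 and 0.182). There 0% of all genes were called. On slide 3 alone the differences were -0.97 and -0.89 (adjusted p = 0.000426 and 0.00202), where 19.1% of all genes were called.

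The remaining basement membrane collagens did not pass the test. Col4a4 differed by 0.00 and Col4a6 by 0.05. Col15a1 had 0.41, 0.28, 0.73 and 0.49 in wild type and 0.26, 0.03, 0.61 and 0.30 in double null hearts, which overlapped, with a difference of -0.18 (adjusted p = 0.371). Col18a1, whose C-terminal fragment is endostatin, had -2.82, -2.93, -2.83 and -2.79 in wild type and -2.64, -1.20, -2.95 and -2.71 in double null hearts. The dim array lay far above the others, and the difference of 0.47 (adjusted p = 0.29) became 0.08 without the dim arrays.

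**Figure D2:**
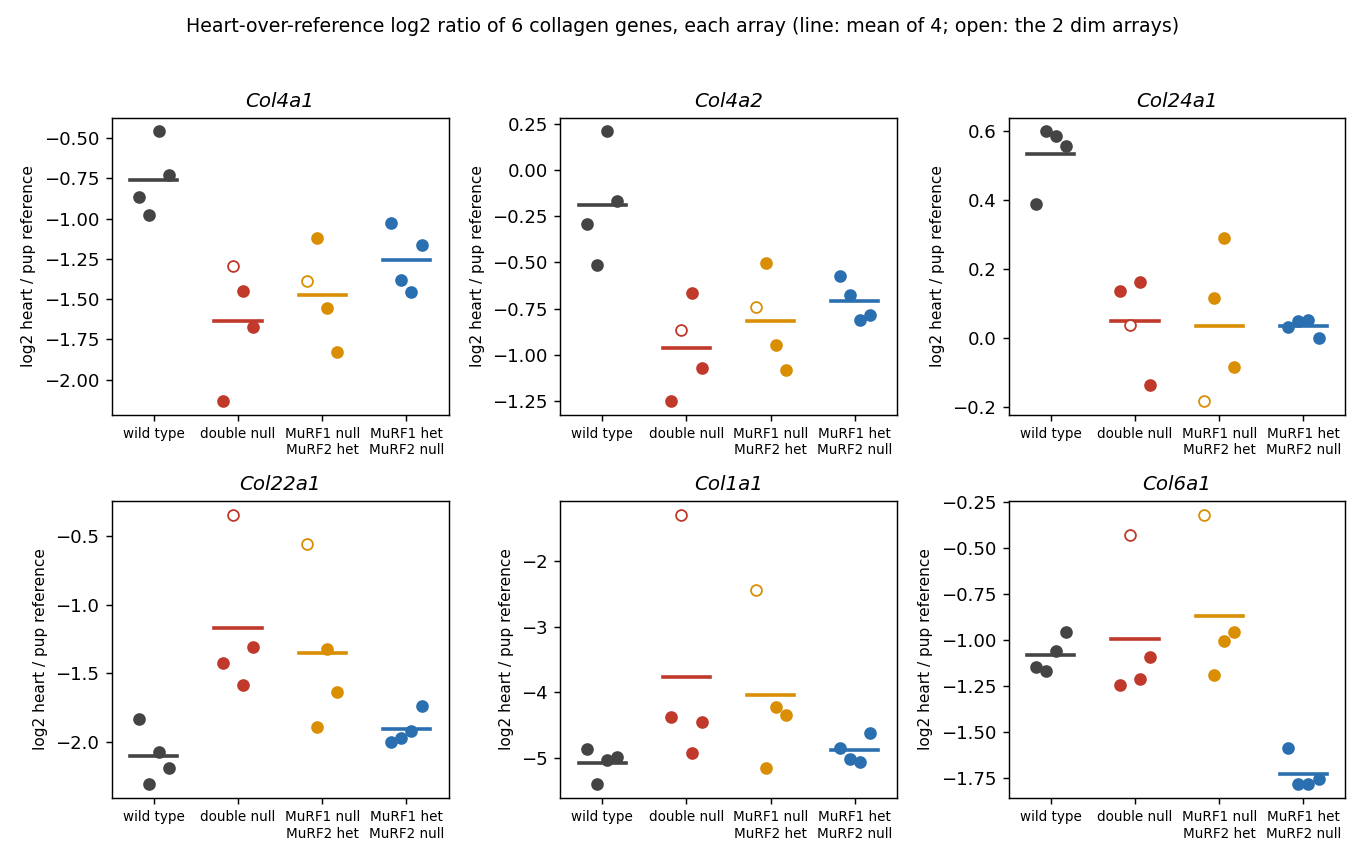
Log2 ratio of heart to pup reference (y axis) for 6 collagens on each of the 16 arrays, by genotype (x axis), where lines are means of 4 arrays and open symbols are the 2 dim arrays. In Col4a1, Col4a2 and Col24a1 the wild type arrays lie above the double null arrays; in Col1a1 and Col22a1 the dim arrays are the highest of their groups, and in Col6a1 the MuRF1 het MuRF2 null arrays lie below all others.

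Among the other collagens, Col22a1, a collagen of muscle and tendon junctions, had -1.84, -2.31, -2.07 and -2.19 in wild type and -1.43, -0.34, -1.58 and -1.31 in double null hearts. The groups did not overlap, and it was 1.91-fold higher (0.93 ± 0.263, adjusted p = 0.021). Without the dim arrays the difference was 0.66 (adjusted p = 0.00182), and a further probe gave 0.43 with all arrays (adjusted p over probes 0.00826). Col17a1, the transmembrane collagen of hemidesmosomes, had -1.64, -1.74, -1.68 and -1.75 in wild type and -1.04, -0.38, -1.59 and -1.10 in double null hearts. It rose by 0.68 (adjusted p = 0.0477) without overlap, and by 0.46 (adjusted p = 0.0134) without the dim arrays. With double null array 2 alone left out, Col17a1 did not pass (adjusted p = 0.132). Its heart signal was well above background on 1 double null array only. With 1 array left out at a time, Col11a2 and Col17a1 each passed in 1 of 8 fits, the one without double null array 3 (adjusted p otherwise up to 0.132) and Col22a1 in 6 of 8 (up to 0.0611, without wild type array 2). None of the 3 collagens that rose passed in a fit with array brightness as a covariate, where Col11a2 differed by 0.01, Col17a1 by 0.02 and Col22a1 by 0.19 (adjusted p = 0.969, 0.922 and 0.254). As every double null array was dimmer than every wild type array, this fit cannot separate brightness from genotype. In the same fit Col4a1 differed by -0.96 and Col4a2 by -0.75 (adjusted p = 0.00736 and 0.016).

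The type VI chains, which form beaded filaments around cells, did not pass. Col6a1 had -1.15, -1.17, -1.06 and -0.96 in wild type and -1.25, -0.43, -1.22 and -1.09 in double null hearts, a difference of 0.09 (adjusted p = 0.753). Col6a2 had -0.63, -0.75, -0.63 and -0.63 in wild type and -0.41, -0.10, -0.73 and -0.62 in double null hearts (0.19, adjusted p = 0.281). Col6a3 had -3.99, -3.91, -3.54 and -3.51 in wild type and -3.84, -2.42, -4.02 and -3.72 in double null hearts (0.24, adjusted p = 0.618). In all 3 the dim array was the highest of the double null arrays, and the groups overlapped. Col8a1, a chain of vessel wall networks, had -0.33, -0.45, 0.08 and -0.02 in wild type and -0.52, -0.07, 0.88 and 0.45 in double null hearts. Its double null arrays 3 and 4, on slide 3, lay above all wild type arrays, while array 1 lay below them, and the difference was 0.37 (adjusted p = 0.224). Col7a1, Col9a2, Col14a1, Col16a1, Col20a1 and Col26a1 differed by 0.14 to 0.81 and none passed.

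The rises moved with the brightness of the array, also in genes that are no collagens. Of the 311 genes tested with a wild type ratio below -2, 13 were collagens. On double null array 2 the median of these 13 stood 1.59 above the wild type mean, and that of all 311 stood 1.498 above it. On MuRF1 null MuRF2 het array 1 the values were 1.37 and 1.36. On the other 3 double null arrays the collagens stood 0.15 to 0.37 above and all 311 genes 0.17 to 0.50 above. Of the 311 genes, 56 rose and 0 fell in double null against wild type, with a median of 0.68, beside 0.62 for the 13 collagens. Before loess, Col1a1 in Cy5 was 9.14 (log2 signal) on double null array 2 and 8.76 to 9.26 on the other double null arrays, while the median gene stood at 5.95 on array 2 and at 6.395 to 6.71 on the others. The fit with brightness as a covariate cannot separate brightness from genotype, and the part of brightness in the collagen rises was not tested.

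**Figure D3:**
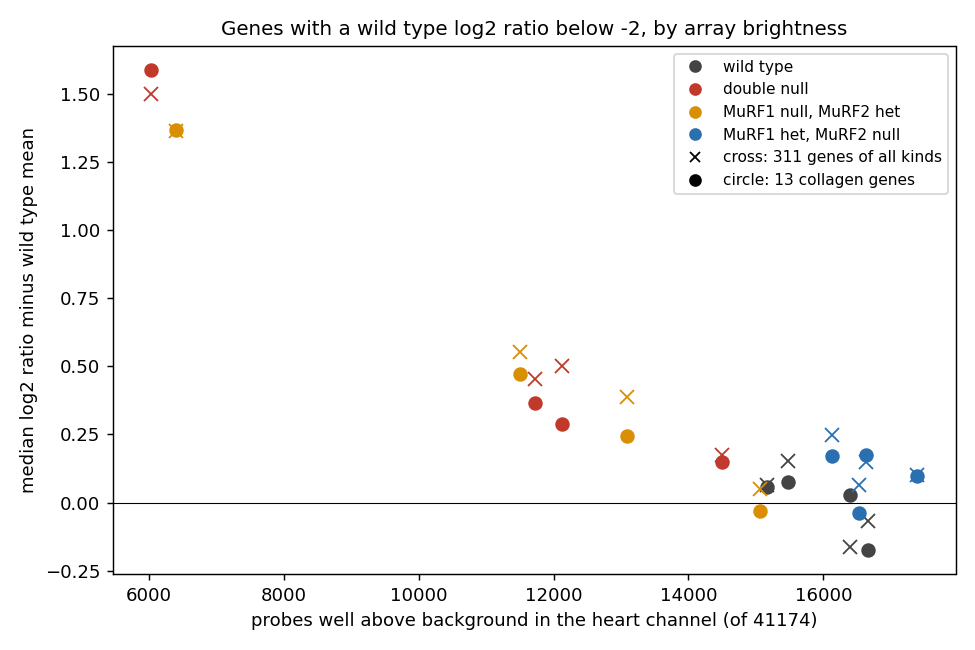
Median log2 ratio minus the wild type mean (y axis) on each array against the number of probes well above background in the heart channel (x axis), for genes with a wild type ratio below -2. Circles are the 13 collagens and crosses all 311 such genes, coloured by genotype. The 2 dim arrays stand at 1.36 to 1.59, above the other 14.

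The scaling of the arrays mattered too. With centring on the median in place of loess, the median over all genes was -0.49, with 18 genes that rose and 6877 that fell, against 1265 and 1485 with loess. None of the 28 collagens rose there and 18 fell, and the medians became -0.46 for fibrillar, -0.54 for basement membrane and -0.33 for other collagens. Col11a2 and Col17a1 turned to -0.03 and -0.02, and Col22a1 was at 0.09. Col4a1 at -1.99 and Col4a2 at -1.90 lay further below 0 than the median gene (adjusted p = 0.0038 and 0.00555), and Col24a1 at -0.38 did not.

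Against wild type, MuRF1 null MuRF2 het hearts had 1 collagen that fell and none that rose by limma (9 of 28 at an unadjusted p under 0.05, beside 2852 of all 12333 genes). In this comparison 1.03% of all genes were called (0.316% rose and 0.714% fell). Arrays lay all above wild type for 1 collagen and all below for 2, beside 6.41% and 6.24% of all genes. This comparison shares its wild type arrays with the comparison above, so the values are set side by side. Col24a1 had -0.18, 0.12, 0.29 and -0.08, all below wild type, and fell by 0.50 (adjusted p = 0.0313). The call was lost without wild type array 2, 3 or 4 and without MuRF1 null MuRF2 het array 1 or 4. Its heart signal was well above background on none of these arrays. It entered the test through the wild type group, so the filter favoured a lower value here, and the call is a description only. Before loess and relative to the median gene of each array, its heart signal was 0.083 higher than in wild type. That median gene stood at 5.96 to 6.82 (log2 Cy5) in these arrays and at 6.82 to 7.10 in wild type. The value thus gives no direction for the heart signal of Col24a1 itself. Col4a1 had -1.39, -1.12, -1.55 and -1.83, all below wild type, and Col4a2 had -0.74, -0.50, -0.95 and -1.08, of which array 2 overlapped wild type. The differences of -0.71 and -0.63 missed the threshold (adjusted p = 0.0621 for each). Col1a1 had -2.44, -5.15, -4.23 and -4.35, with the dim array 1 far above the rest (1.03, adjusted p = 0.324). Double null and MuRF1 null MuRF2 het hearts differed in no collagen by limma (1 of 28 at an unadjusted p under 0.05, beside 1196 of all 12333 genes), with 0.349% of all genes called (0.162% rose and 0.186% fell). Col4a1 differed between them by -0.16 ± 0.180 and Col4a2 by -0.15 ± 0.158. The collagen with the smallest p there was Col8a1, which had -0.35, -0.47, -0.52 and -0.59 in MuRF1 null MuRF2 het hearts (0.67, adjusted p = 0.25).

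MuRF1 het MuRF2 null hearts had 1 collagen that fell against wild type and none that rose by limma (6 of 28 at an unadjusted p under 0.05, beside 2002 of all 12333 genes), with 1.98% of all genes called (0.649% rose and 1.33% fell). Col24a1 had 0.03, 0.05, 0.05 and 0.00, all below wild type and well above background on none of the 4 arrays. It fell by 0.50 (adjusted p = 0.0165) with the same limit from the filter, and before loess its heart signal was lower by 0.45 and its reference by 0.72 relative to the median gene. The call was lost without wild type array 2 or 4 and without MuRF1 het MuRF2 null array 1, 2 or 4. Col4a1 had -1.03, -1.38, -1.46 and -1.17 and Col4a2 had -0.57, -0.68, -0.81 and -0.79. All lay below wild type, with differences of -0.50 and -0.52 that did not pass (adjusted p = 0.165 and 0.101). Col6a1 had -1.59, -1.78, -1.79 and -1.76, all below the 12 arrays of the other groups, and its difference from wild type was -0.65 (adjusted p = 0.0767). Col1a2 had -3.33, -3.53, -3.84 and -3.24, all above wild type, with a difference of 0.75 (adjusted p = 0.509). In this group 2 of 28 collagens lay all above wild type and 6 all below, beside 9.24% and 11.4% of all genes.

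The Cy3 signal of the pup reference differed on the slide that held these 4 arrays. Genotype, slide and Feature Extraction version cannot be told apart there, and the source of the difference was not tested. Relative to the median of all genes tested on the same array and before loess, Col6a1 in the Cy3 reference stood at 0.93 in wild type and 1.86 in MuRF1 het MuRF2 null arrays. In the Cy5 heart channel the same arrays were 0.28 higher than wild type. Reference differences from wild type of over 0.5 in size were found for 6 of the 28 collagens in this group, where 3.45% of all genes had one: Col2a1, Col4a1, Col5a3, Col6a1, Col14a1 and Col24a1. In double null and MuRF1 null MuRF2 het arrays none of the 28 had one (0.365% and 0.203% of all genes). For Col4a1 the reference was 0.50 higher in MuRF1 het MuRF2 null than in wild type arrays, and the heart signal differed by -0.09. In double null arrays, by contrast, the heart signal of Col4a1 differed from wild type by -1.32 and its reference by 0.12, and for Col4a2 the values were -1.25 and 0.10. In MuRF1 null MuRF2 het arrays the heart signals differed by -1.20 for Col4a1 and -1.17 for Col4a2. Col3a1 differed by -0.84 in the double null heart channel, with a ratio difference of 0.07. As every double null array was dimmer than every wild type array, brightness and genotype cannot be told apart on this measure. On it the low double null ratios of Col4a1 and Col4a2 lay in the heart channel. The low MuRF1 het MuRF2 null ratios of Col6a1 and Col4a1 lay mainly in the reference channel.

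**Figure D4:**
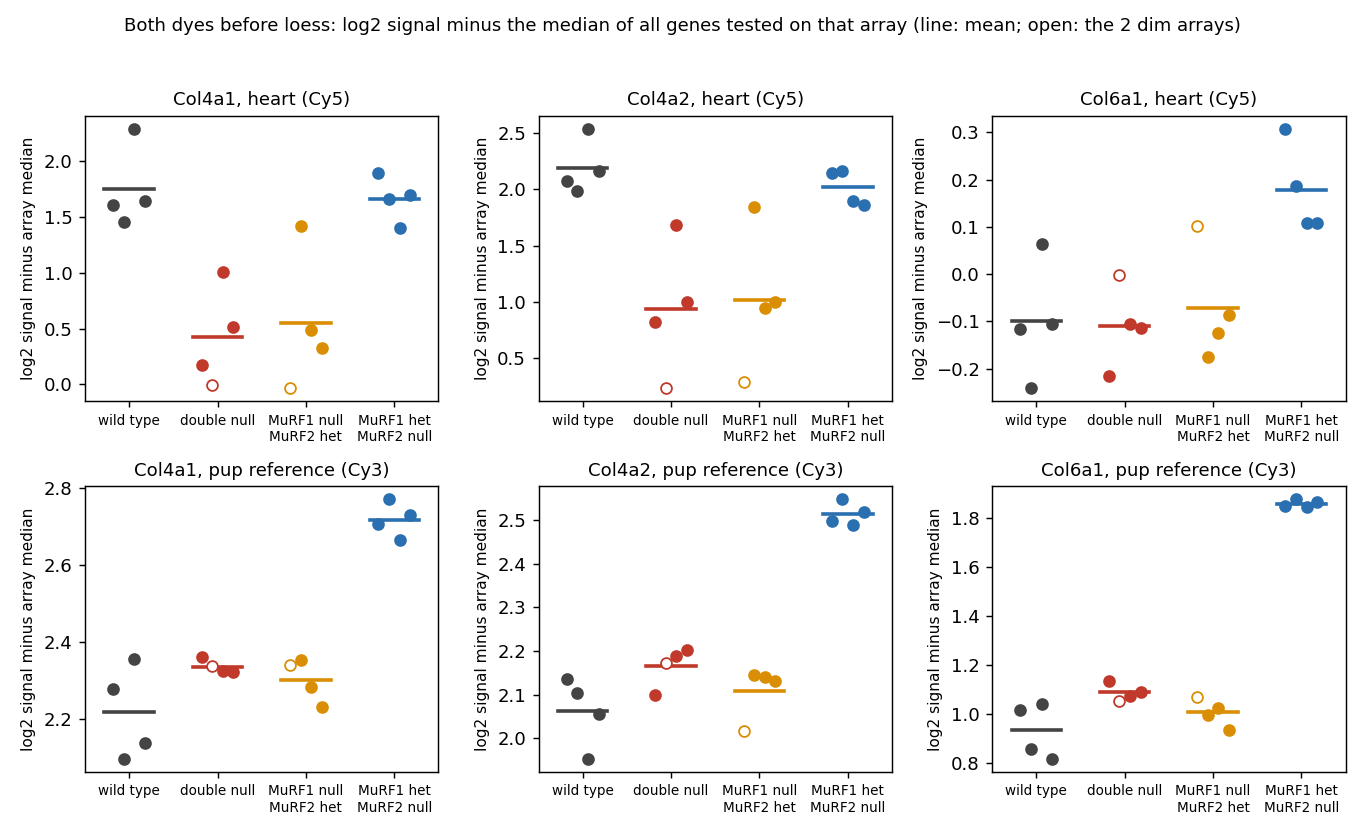
Log2 signal minus the median of all genes tested on the same array, before loess (y axis), in the heart channel (top) and the pup reference channel (bottom) for Col4a1, Col4a2 and Col6a1 by genotype (x axis), where lines are means of 4 arrays and open symbols the 2 dim arrays. The mean reference of Col6a1 is 1.86 in MuRF1 het MuRF2 null arrays and 0.93 in wild type. The mean heart signals of Col4a1 and Col4a2 are lower in double null and MuRF1 null MuRF2 het arrays than in wild type.

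Comparisons of the other mutant groups with MuRF1 het MuRF2 null carry this difference of the reference signal. Double null hearts had 5 collagens that rose against that group and none that fell (17.9% of 28), with 26.4% of all genes called (13.7% rose and 12.7% fell). These were Col6a1 (0.73, adjusted p = 0.00818), Col9a2, a fibril-associated chain of cartilage (0.47, adjusted p = 0.00696), Col11a1 (0.92, adjusted p = 0.0336), Col17a1 (0.71, adjusted p = 0.0362) and Col22a1 (0.74, adjusted p = 0.0487). MuRF1 null MuRF2 het hearts differed from the same group in 3 collagens (10.7% of 28), with 8.54% of all genes called (4.59% rose and 3.95% fell). Col6a1 (0.86, adjusted p = 0.0135) and Col9a2 (0.61, adjusted p = 0.0077) rose, and Col15a1 fell by 0.49 (adjusted p = 0.0427). Col9a2 had -0.12, -0.10, -0.31 and -0.31 in double null, 0.21, -0.36, 0.00 and -0.15 in MuRF1 null MuRF2 het and -0.62, -0.87, -0.72 and -0.53 in MuRF1 het MuRF2 null hearts, the last below all the others. Col15a1 had -0.14, 0.42, 0.06 and 0.32 in MuRF1 null MuRF2 het and 0.85, 0.63, 0.55 and 0.57 in MuRF1 het MuRF2 null hearts, without overlap. Between these groups 6 of 28 collagens lay all above and 2 all below, beside 11.9% and 8.17% of all genes. For double null against MuRF1 het MuRF2 null, 9 collagens lay all above and 0 all below, beside 15.7% and 13% of all genes. The directions of the calls depended on the setting. With Cy5 alone 3 collagens rose and 7 fell in the first of these comparisons and 1 rose and 6 fell in the second (27.7% and 13.1% of all genes called), and with brightness as a covariate 1 rose and 8 fell, and 2 rose and 9 fell (21.1% and 11.1%). In the Cy5 channel alone, Col6a1 differed by -0.28 and -0.15 in these comparisons (adjusted p = 0.0571 and 0.364), so the direction turned. With the Feature Extraction ratio the Col6a1 difference was also below 0, at -0.23 (adjusted p = 0.432). Col9a2 differed by -0.04 and 0.23 there and passed in neither, and its reference was 0.41 higher in MuRF1 het MuRF2 null than in wild type arrays.

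Genes that build, cut and hold collagen were counted from lists, in double null against wild type and beside the 22.3% of all genes called. Of 19 tested of 22 genes of procollagen synthesis, folding and secretion, 2 rose and 2 fell, with a list median of 0.02. P4ha1, a prolyl hydroxylase subunit, rose by 0.61 (adjusted p = 0.00921), and Serpinh1, the collagen chaperone HSP47, by 0.74 (adjusted p = 0.0213). P3h4, a partner of collagen hydroxylases, fell by 0.49 and Plod1, a lysyl hydroxylase, by 0.40. Of 8 tested of 15 genes of processing and crosslinking, Furin, a proprotein protease, fell by 0.59 and none rose. Of 9 tested of 11 collagen receptors, Cd44 (0.50) and Mrc2 (0.35), an uptake receptor, rose, and Itga1, an integrin subunit that binds type IV collagen, fell by 0.36. Of 10 tested of 15 genes of degradation and its inhibitors, 2 were called higher and 3 lower. The metalloprotease inhibitor Timp1 rose by 0.50. The call of Timp2 (0.59) rested on double null array 2 alone, a dim array, since its spots were irregular on the other 3, and without that array it has no value. Timp3 fell by 0.80, Timp4 by 0.71 and Mmp15, a membrane-bound matrix protease, by 1.10 (adjusted p = 0.000348). Timp4 on double null array 1 (2.00) lay within its wild type range of 1.74 to 2.18. Timp4 and Mmp15 had wild type ratios above 1. The 1204 genes tested with such ratios had medians of -0.16, -0.72, -0.29 and -0.29 against the wild type mean on the double null arrays. The part of brightness in these falls was not tested. With median centring Serpinh1, Cd44, Mrc2 and Timp1 turned to -0.76, -0.39, -0.15 and -0.21, where the median over all genes was -0.49.

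Genes of proteins that share the basement membrane with type IV collagen were also among those that fell. Of 11 tested of 15 laminin, nidogen and proteoglycan genes, 4 fell and 1 rose, where 22.3% of all genes were called, with a median of -0.35. The laminin chains Lamb2 (fell by 1.15, adjusted p = 0.00255), Lama5 (fell by 0.90, adjusted p = 0.000878), Lamb1 (fell by 0.66, adjusted p = 0.00947) and Lamb3 (fell by 0.35) were lower. Without the dim arrays 7 fell and 1 rose, where 29.3% of all genes were called (1811 of 12333 fell). Lamb2 lay at 1.61 to 1.78 in wild type hearts, and genes with wild type ratios above 1 had lower medians on every double null array, as given above.

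Markers of cells that make these collagens moved as well. Of 14 endothelial markers tested, 10 fell and none rose, beside the 12% of all genes that fell and 10.3% that rose. The counts below have the same background unless another is given, and 4758 of 12333 genes had an unadjusted p under 0.05. The median of the endothelial markers against the wild type mean was -0.06 to 0.06 in wild type and -0.56 to -0.48 in double null arrays. It was -0.69 to -0.13 in MuRF1 null MuRF2 het and -0.22 to 0.07 in MuRF1 het MuRF2 null arrays. Of 11 smooth muscle and pericyte markers, 6 fell and 2 rose. Their part in the falls of Col4a1 and Col4a2 was not tested. Of 11 cardiac fibroblast markers 4 rose and none fell, and of 5 tested markers of activated fibroblasts 4 rose and none fell, with array medians of 0.09 to 0.74 and 0.30 to 1.29 in double null hearts. With median centring, where 6877 of all 12333 genes fell and 18 rose, 4 of the fibroblast markers fell and none rose. None of the activated fibroblast markers passed there (0 at an unadjusted p under 0.05). With brightness as a covariate 4 fibroblast markers and 1 activated fibroblast marker rose and none fell, where 14.8% of all genes were called. With Cy5 alone 2 of each list rose and 1 fibroblast marker fell, where 19.3% of all genes were called. In the fit as reported, none of 10 macrophage markers passed by limma (2 at an unadjusted p under 0.05). Of 3 valve and cartilage markers, which hold Col2a1, none did (1 at an unadjusted p under 0.05). Of 5 adipocyte markers 1 rose, and of 11 heart muscle genes 2 rose and 2 fell.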

How the data were processed

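The deposited array files hold, per the file headers, intensities of both dyes as spot means with local background medians, from Agilent Feature Extraction (9.5.3.1 for MuRF1 het MuRF2 null, 9.1.3.1 for the other arrays). They also hold a log10 ratio, red over green, that the authors' run of the program corrected for background and dye. In the deposited series matrix, whose values are log2 ratios, 66.3% lay within 0.001 of the Feature Extraction ratio minus each probe's median over arrays. The labelling protocol (50 ng of RNA per sample, per the labels) names only Cy3-CTP; the channel entries, with heart in Cy5, were followed. The file of double null array 2 holds values to 3 significant digits.

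Intensities were processed in R 4.3.3 with limma 3.58.1: normexp with an offset of 50, then loess, with control and irregular spots at no weight. Irregular spots were left out, which removed, of the collagens, Col6a3 on MuRF1 het MuRF2 null array 2 and, of the other genes listed, Timp2 on 4 arrays and Dcn and Mybpc3 on 1 each. Of the probes, 16810 passed the filter, and the one with the highest mean Cy5 signal stood for its gene. Symbols came from RefSeq (GRCm38.p6), by accession for 22951 probes, symbol for 6661 and synonym for 3095, and 8467 kept the file's name. The 6 comparisons were fitted over all 16 arrays, p-values were two-sided and adjusted by Benjamini-Hochberg across every gene tested, and genes under 0.05 were said to rise or fall. The fit was tested on simulated data. Having 4 arrays a group limits the precision.

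The collagen genes and all lists were chosen with earlier results of these data known. Named were collagens that passed in any comparison, 13 chains in every case, and up to 4 called members of each collagen-related list by smallest p; Timp4, Lamb3, Col2a1, Col5a3 and the collagens of the reference channel were named after their values were seen. One gene of these lists enters the counts but its own values are not reported here. Alternatives were the Feature Extraction ratio, the series matrix, median centring, no background correction, other filters, the mean of all probes, Cy5 alone, array brightness as a covariate, slide or replicate number as a block, each slide alone and each array left out. Leaving out both dim arrays was chosen after seeing the data.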

Additional observations from a re-analysis of the deposited data

Results flagged for a closer look

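Within the groups of 4 arrays, 19 named collagens gave 76 groups, and in 7 of them 1 array lay far from the other 3 by Dixon's test, which chance alone would do in about 1 group of 20. Col1a1 (-1.293, the nearest array at -4.383), Col1a2 (-1.431, nearest -3.966) and Col5a1 (-1.899, nearest -2.84) each had the dim double null array 2 far above. Col18a1 had the dim MuRF1 null MuRF2 het array 1 far above, at -1.523, with the nearest at -2.641. In MuRF1 het MuRF2 null hearts, array 1 stood above the others for Col6a1 (-1.59) and below them for Col6a2 (-0.8894). In wild type hearts, array 2 stood below the others for Col6a2 (-0.748). The last 3 gaps spanned under 0.2 on the log2 scale.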

How the results depend on the processing

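Col4a1 and Col4a2 fell in double null against wild type under every alternative but slide 1 alone (given above), where 0% of all genes were called. The filter of all 16 arrays did not test Col4a1. Without any 1 array Col4a1 stayed between -0.99 and -0.71 and Col4a2 between -0.88 and -0.64, called each time, whereas Col11a2 and Col17a1 were called in 1 of 8 such fits. Counts of collagens called follow in the order double null against wild type, MuRF1 null MuRF2 het against wild type, MuRF1 het MuRF2 null against wild type, double null against MuRF1 null MuRF2 het, double null against MuRF1 het MuRF2 null and MuRF1 null MuRF2 het against MuRF1 het MuRF2 null: 6, 1, 1, 0, 5 and 3 as reported. They were 5, 0, 0, 0, 3 and 1 with the Feature Extraction ratio and with the series matrix, 18, 22, 13, 0, 4 and 3 with median centring, 6, 1, 1, 0, 2 and 2 without background correction, 2, 0, 0, 0, 0 and 0 with the filter of all 16 arrays, 4, 1, 1, 0, 9 and 5 without a filter, 5, 0, 3, 0, 10 and 7 with Cy5 alone and 8, 0, 8, 0, 9 and 11 with brightness as a covariate. By direction, in the same order, 3, 0, 0, 0, 5 and 2 rose and 3, 1, 1, 0, 0 and 1 fell as reported; with Cy5 alone 2, 0, 2, 0, 3 and 1 rose and 3, 0, 1, 0, 7 and 6 fell, and with the covariate 0, 0, 3, 0, 1 and 2 rose and 8, 0, 5, 0, 8 and 9 fell. Slide 1 alone gave 0 collagens (0% of all genes) and slide 3 alone 7 (19.1%) in the first comparison. Shares of all genes called (%), in the order above, were 22.3, 1.03, 1.98, 0.349, 26.4 and 8.54 as reported. The Feature Extraction ratio gave 17.6, 0.178, 0.187, 0.705, 20.5 and 2.35. Median centring gave 55.9, 59.8, 20.7, 0, 7.08 and 2.86. Without background correction they were 23, 1.08, 2, 0.389, 24.1 and 5.69. The filter of all 16 arrays gave 30, 0.594, 4.01, 1.23, 32.1 and 9.31. Without both dim arrays they were 9, 1, 0, 12 and 5, with MuRF1 het MuRF2 null against wild type holding neither array. Leaving out 1 array at a time gave 3 to 11 (3 without wild type array 2 or 4, 11 without double null array 3), 0 to 7 (7 without MuRF1 null MuRF2 het array 2), 0 to 1, 0 to 1, 2 to 12 (12 without double null array 3) and 2 to 6. The causes were not tested.

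Signs were compared for the 19 named collagens only, so Col2a1 and other collagens are not in the lists below. Over all 28 collagens in double null against wild type, 23 lay above 0 as reported, 2 with median centring and 7 with brightness as a covariate. Of all 12333 genes, 6340, 638 and 5964 lay above 0 in these 3 settings. Some values called in at least one of the settings compared changed sign. With median centring in double null against wild type these were Col11a2 (-0.031), Col17a1 (-0.016), Col6a1 (-0.71), Col9a2 (-0.41), Col1a2 (-0.92), Col3a1 (-1.43), Col5a1 (-0.92), Col18a1 (-0.62), Col6a2 (-0.45) and Col6a3 (-0.94), and Col6a1 in MuRF1 null MuRF2 het against wild type (-0.57). With brightness as a covariate they were Col6a1 (-0.39), Col5a1 (-0.43), Col18a1 (-0.43) and Col6a3 (-0.63), and, against MuRF1 het MuRF2 null, Col17a1 (-0.057), Col22a1 (-0.12) and Col11a1 (-0.068). Col6a1 in double null against MuRF1 het MuRF2 null was -0.23 with the Feature Extraction ratio and with the series matrix and -0.28 with Cy5 alone, where Col9a2 was -0.044. In MuRF1 null MuRF2 het against that group Col6a1 was -0.15 with Cy5 alone. Col3a1 was -0.43 on slide 3 alone. Values called in neither setting also changed sign, among them Col1a1 (-0.28), Col5a2 (-0.25) and Col11a1 (-0.11) with median centring and Col1a1 (-0.49), Col1a2 (-0.54), Col3a1 (-0.68), Col5a2 (-0.14) and Col11a1 (-0.093) with the covariate.

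Deviations of same-numbered arrays correlated at -0.611 to 0.363 (median -0.0297) over 24 pairs, with 9 over 0.1. Those of differently numbered arrays correlated at -0.692 to 0.792 (median 0.0205) over 72 pairs, with 27 over 0.1. Same-numbered arrays were thus no more alike than others. With the replicate number as a block the counts were 4, 1, 1, 0, 2 and 2. Of all genes, 19.4, 0.535, 1.23, 0.13, 23.7 and 6.45% were called there. Dim heart signal limits Col20a1 and Col24a1 (well above background on 5 arrays each), Col17a1 (9 arrays) and the 14 collagens not tested.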
